A study of Mus musculus with 3 samples.

Results

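Autophagy is the route by which a cell encloses its own cytoplasm in a membrane and delivers it to the lysosome for degradation. It was described here through 10 genes for its initiation and adaptor steps, matched by symbol in the annotation of the array platform: Ulk1, Becn1, Atg5, Atg7, Map1lc3a, Map1lc3b, Gabarap, Gabarapl1, Sqstm1 and Tfeb. All 10 had a probe that was detected on at least 1 array, out of 10603 measured genes. The rule that picks them uses their names alone, and the names were chosen with earlier results of these data known.

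The study asked how long-term treatment with rapamycin, an inhibitor of the kinase complex mTORC1, affects mice that become obese on a high-fat diet. Visceral (perigonadal) white adipose tissue, VWAT, was profiled on 3 Illumina mouse bead arrays, 1 per group, each with RNA pooled from 5 mice. HFD-Rapa mice were C57BL/6JRj mice on the high-fat diet (HFD) that received 2 mg/kg rapamycin intraperitoneally once a week for 22 weeks. HFD-Ve mice had the same strain, diet and schedule but received the vehicle alone, a mixture of PEG400, ethanol and a Tween detergent. Chow mice were of the same strain and received the vehicle too, and their diet is called low-fat in the sample labels and regular chow in the methods. The labels give an age of 28 weeks for all groups. By the methods the mice entered at 6 weeks of age and the HFD ran for 5 weeks before the injections. Males and females were both used in the study, and which sexes were pooled for each array is not stated. With 1 array per group there is no spread between samples, so no difference below carries a test. Differences are given for HFD-Rapa over HFD-Ve (the rapamycin comparison), for HFD-Ve over chow (the diet comparison) and for HFD-Rapa over chow (the joint comparison, which holds diet and drug together). All 3 comparisons share arrays.

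Induction of autophagy begins with the ULK kinase complex, whose catalytic subunit Ulk1 is held inactive by mTORC1 when nutrients are plentiful. The class III PI3-kinase complex around Becn1 then marks the forming membrane, and Atg7 and Atg5 act in the linked conjugation reactions that attach LC3 and GABARAP proteins (the Atg8 family) to it. Sqstm1, also called p62, is an adaptor that binds ubiquitinated cargo and Atg8 proteins and is itself degraded with the cargo. Tfeb is a transcription factor for lysosomal and autophagy genes that mTORC1 keeps in the cytosol. Many of these steps are set by phosphorylation, lipidation and protein turnover, none of which an array measures. The values below are transcript signals only.

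The tissue label was checked first. The adipocyte genes Adipoq, Lep, Plin1 and Fabp4 were detected on every array, and Retn was detected on the HFD-Ve and chow arrays but not on the HFD-Rapa array. VWAT is a mixture of adipocytes, stromal, vascular and immune cells, and markers of these cells moved with the groups. The summed normalized signal of 9 measured macrophage markers was 39618 in HFD-Rapa, 27327 in HFD-Ve and 9153 in chow. All 9 were at least 1.5-fold higher in HFD-Ve than chow, where 15.1% of all genes were. Between HFD-Rapa and HFD-Ve, 5 of 9 passed 1.5-fold upward, where 8.55% of all genes did. The sum of 9 measured adipocyte markers was 70576 in HFD-Rapa, 89861 in HFD-Ve and 92386 in chow. Singly, 4 of these 9 were at least 1.5-fold lower and 1 higher in HFD-Ve than chow, where 11.7% and 15.1% of all genes were. Between HFD-Rapa and HFD-Ve, 4 were at least 1.5-fold lower and 0 higher. In bulk tissue, fewer cells of a type and less RNA per cell cannot be told apart, and the part of the cell mixture in the results below was not tested. Of the other cell markers, 4 of 5 endothelial genes were at least 1.5-fold lower on the HFD-Rapa array than on the HFD-Ve array. At least 1.5-fold higher there were 3 of 3 measured T cell, 2 of 2 B cell, 5 of 6 neutrophil and 3 of 4 mesothelial genes. The neutrophil count was 3 with undetected signals raised to the lowest detected signal. Of all genes, 7.56% were that much lower and 8.55% that much higher between HFD-Rapa and HFD-Ve. In HFD-Ve, 4 of 6 fibroblast and preadipocyte genes and 6 of 7 lipid-associated macrophage genes were at least 1.5-fold higher than in chow. Of the 4 mesothelial genes, 2 were at least 1.5-fold lower in HFD-Ve than chow. Between HFD-Rapa and HFD-Ve, 1 of the 6 fibroblast and preadipocyte genes was that much lower and 0 higher. The T cell list held 6 genes and the B cell list 5, so most B cell markers were not measured. The probes detected numbered 16951 to 17966 of 45281 per array.

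The 10 genes differed little between the arrays, and 1 of their 30 differences passed 1.5-fold. In the rapamycin comparison, Map1lc3a was the 1 gene of 10 that was at least 1.5-fold lower, where 7.56% of all measured genes were, and 0 of 10 were at least 1.5-fold higher, where 8.55% of all genes were. In the diet comparison, 0 of 10 were at least 1.5-fold higher, where 15.1% of all genes were, and 0 of 10 were at least 1.5-fold lower, where 11.7% were. In the joint comparison, 0 of 10 passed in either direction, where 20.5% of all genes were higher and 19.5% were lower. Counting both directions, the shares of all genes past 1.5-fold were 16.1%, 26.8% and 40.1% in these 3 comparisons. For the first comparison 1 of 10 is near that background. These counts rest on the brightest probe of each gene. A second Becn1 probe was 1.85-fold higher in HFD-Ve and 1.55-fold higher in HFD-Rapa than in chow.

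The sizes of the differences were also small beside those of other genes. The median absolute log2 difference of the 10 genes was 0.11 in the rapamycin comparison, against 0.24 over all genes. It was 0.21 in the diet comparison, against 0.32 over all genes, and 0.22 in the joint comparison, against 0.45 over all genes. Dimmer genes held larger differences, and 9 of the 10 genes had a mean log2 signal of at least 8. Among the 5664 genes with such a signal, 13.7%, 22.4% and 36.6% passed 1.5-fold in the 3 comparisons, and their median absolute differences were 0.23, 0.29 and 0.41, against 0.12, 0.21 and 0.24 for the 9 genes. With sign, the median difference of the 10 genes was -0.05 in the rapamycin comparison (4 above and 6 below 0), 0.11 in the diet comparison (7 above and 3 below 0) and 0.04 in the joint comparison (6 above and 4 below 0). These counts include Tfeb, which was not detected on the chow array, and with Tfeb at its bound the medians against chow were 0.07 in the diet comparison and 0.001 in the joint comparison. The medians over all genes were 0.02, -0.05 and -0.04.

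**Figure D1:**
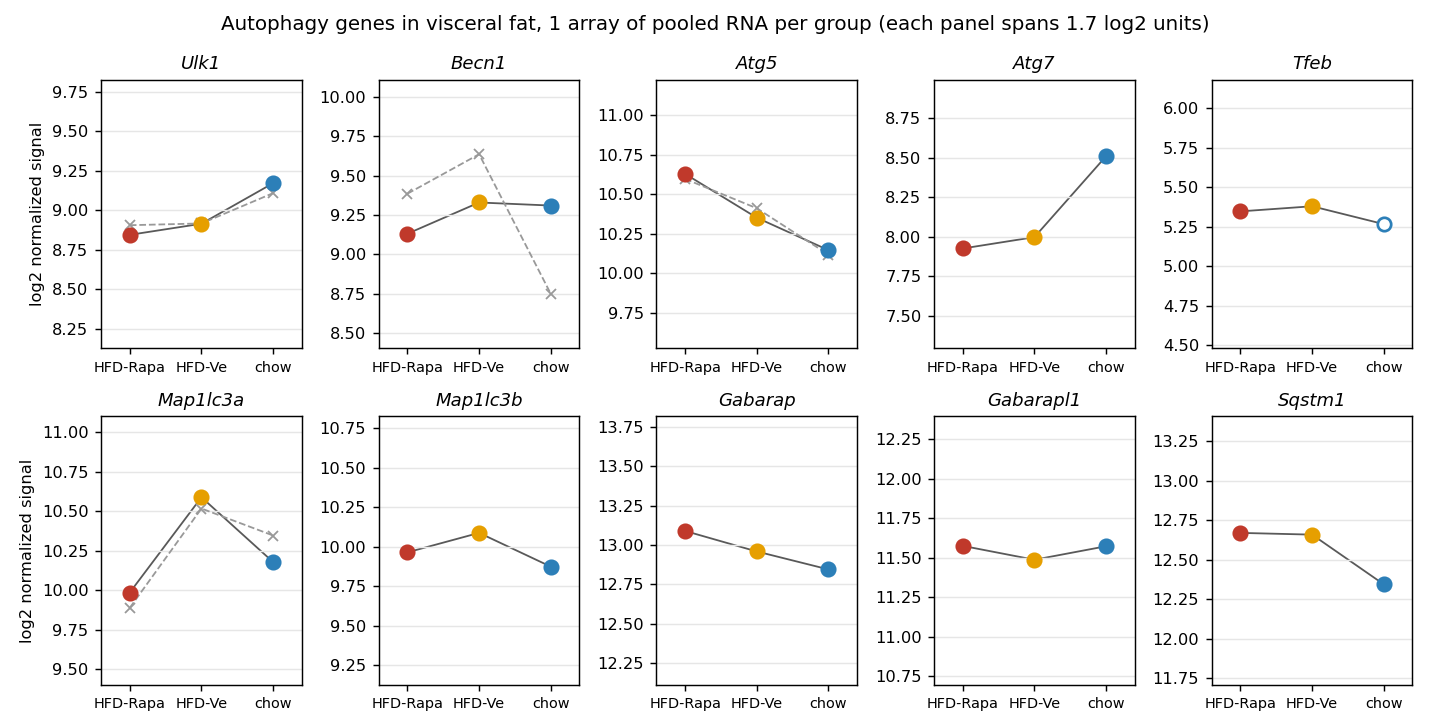
Log2 normalized signal (vertical axis) of each of the 10 genes on the HFD-Rapa, HFD-Ve and chow arrays, 1 array of pooled RNA per group. Filled points are the brightest probe, the open point for Tfeb marks a signal that was not detected, and grey crosses are a gene's next probe shifted to the same mean. The vertical scale has the same span in every panel, and Map1lc3a, lowest at 9.98 on the HFD-Rapa array and highest at 10.59 on the HFD-Ve array, covers the widest range.

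Because no sample was repeated, the agreement of different probes of 1 gene is the one yardstick in these data. Over 3941 genes with several kept probes, the SD of the log2 difference between probes of the same gene was 0.21 in the rapamycin comparison, 0.32 in the diet comparison and 0.38 in the joint comparison. Over the 1366 genes with several probes of a mean log2 signal of at least 8, which suits all of the 10 genes but Tfeb, it was 0.15, 0.22 and 0.28. The SD covers probe error only and leaves out differences between mice. Single differences are set below beside the SD between bright probes.

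Of the initiation genes, Ulk1 encodes the kinase that starts autophagosome formation. Its log2 signal was 8.84 in HFD-Rapa, 8.92 in HFD-Ve and 9.17 in chow. Both HFD arrays lay below the chow array and close to each other. The difference was -0.07 in the rapamycin comparison (1.05-fold lower), -0.26 in the diet comparison (1.19-fold lower) and -0.33 in the joint comparison (1.25-fold lower). The first is smaller than the SD between bright probes and the differences from chow are slightly larger. In the diet and joint comparisons, 58.9% and 61.6% of all genes were at least as far apart as Ulk1. A second Ulk1 probe read 8.26, 8.27 and 8.47 on the HFD-Rapa, HFD-Ve and chow arrays, the same order with differences of -0.01, -0.19 and -0.20, each within that SD.

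Becn1 encodes Beclin 1, the scaffold of the PI3-kinase complex. Its brightest probe read 9.13 in HFD-Rapa, 9.33 in HFD-Ve and 9.31 in chow, so the HFD-Rapa array was the lowest by a small margin. The differences were -0.20 in the rapamycin comparison, 0.02 in the diet comparison and -0.18 in the joint comparison. A second probe gave another picture, with 8.21 in HFD-Rapa, 8.46 in HFD-Ve and 7.57 in chow. Both probes were lower in HFD-Rapa than HFD-Ve, by 1.15-fold on the brightest and 1.19-fold on the second. They differed against chow, where the second probe was 1.55-fold higher in HFD-Rapa and 1.85-fold higher in HFD-Ve. Which of them reads the level of Becn1 against chow was not tested. A further probe was not detected on any array, and another that the annotation also assigns to another gene was not used.

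Of the conjugation genes, Atg5 encodes the acceptor of the ubiquitin-like protein Atg12, and the conjugate then promotes lipidation of LC3. Atg5 read 10.63 in HFD-Rapa, 10.35 in HFD-Ve and 10.15 in chow, highest with rapamycin and lowest on chow. It was 1.21-fold higher in HFD-Rapa than HFD-Ve, 1.15-fold higher in HFD-Ve than chow and 1.40-fold higher in HFD-Rapa than chow (log2 differences of 0.28, 0.21 and 0.48), below the 1.5-fold threshold each time. Its second probe had the same order, with 10.46 in HFD-Rapa, 10.27 in HFD-Ve and 9.98 in chow, and differences of 0.19, 0.29 and 0.48. Of the 10 genes, Atg5 stood highest in the rapamycin comparison, in which 43.95% of all genes were at least as far apart.

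Atg7 encodes the E1-like enzyme that activates both Atg12 and the Atg8 proteins. It read 7.93 in HFD-Rapa, 7.997 in HFD-Ve and 8.51 in chow. As with Ulk1, both HFD arrays lay below chow and close to each other, in the direction opposite to Atg5. The difference was -0.51 in the diet comparison (1.43-fold lower) and -0.58 in the joint comparison (just short of 1.5-fold), and both were larger than the SD between bright probes. HFD-Rapa and HFD-Ve differed by -0.07 (1.05-fold lower). In the joint comparison 40.1% of all genes were at least as far apart as Atg7. Atg7 has a single probe on the array.

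Tfeb and its relatives bind the CLEAR element, which is built around the E-box CACGTG, and so the promoters of the 10 genes were searched for it. RefSeq promoter windows of the GRCm38.p6 build, from 250 bases before to 50 bases after a start site, were matched to 8 of the 10 genes, and no window was matched for Becn1 and Map1lc3a. The motif CACGTG, which is its own reverse complement, was found for 2 of these genes, Atg5 and Atg7, and in 7.15% of all 32851 windows. The longer letters TCACGTG on either strand (CACGTGA), which contain the E-box, were in the Atg7 window and in 3.77% of all windows. A longer palindrome of the CLEAR element that contains both was in no window of the 10 genes and in 0.326% of all windows. The 2 windows are shown because these genes had opposite directions against chow, with CACGTG in capitals. Counted from the start site, the motif begins at base -14 for Atg5 and at base -132 for Atg7. The windows lie on the plus strand at chr10:44268089-44268388 for Atg5 and at chr6:114670846-114671145 for Atg7.
Atg5: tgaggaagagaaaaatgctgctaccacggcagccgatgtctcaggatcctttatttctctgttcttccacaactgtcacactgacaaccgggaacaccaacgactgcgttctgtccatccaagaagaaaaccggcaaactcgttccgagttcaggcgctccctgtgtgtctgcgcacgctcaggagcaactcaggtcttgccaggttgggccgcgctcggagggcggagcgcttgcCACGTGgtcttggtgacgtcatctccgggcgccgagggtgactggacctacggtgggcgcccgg
Atg7: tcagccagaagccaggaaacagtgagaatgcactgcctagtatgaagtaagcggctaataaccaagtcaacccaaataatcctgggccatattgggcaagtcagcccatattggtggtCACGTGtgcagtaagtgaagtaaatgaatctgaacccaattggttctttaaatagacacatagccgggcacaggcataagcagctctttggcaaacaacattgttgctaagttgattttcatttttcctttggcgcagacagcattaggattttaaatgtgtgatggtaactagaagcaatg
A match of letters is a description of the window and does not show a binding site.

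The Atg8 family carries the lipid tag that marks the autophagosome membrane and binds cargo adaptors. Map1lc3a, which encodes LC3A, read 9.98 in HFD-Rapa, 10.59 in HFD-Ve and 10.18 in chow. The HFD-Ve array was the highest and the HFD-Rapa array the lowest, with chow between. Map1lc3a was 1.52-fold lower in HFD-Rapa than HFD-Ve (-0.60, log2), 1.33-fold higher in HFD-Ve than chow (0.41) and 1.14-fold lower in HFD-Rapa than chow (-0.19). Of all genes, 7.12% lay at or below -0.60 in the rapamycin comparison, and this difference was larger than the SD between bright probes. A second, dim probe read 5.19 in HFD-Rapa, where it was not detected, 5.82 in HFD-Ve and 5.65 in chow. It was at least 1.48-fold lower in HFD-Rapa than HFD-Ve, a bound set against the lowest signal that counts as detected. Both probes thus had HFD-Ve highest and HFD-Rapa lowest. The brightest probe was just under 1.5-fold without background correction and in the authors' processed values, where the log2 difference was as small as -0.57.

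To place this pattern, the 3 genes nearest to Map1lc3a over the 3 arrays were sought among 9335 genes detected on all of them, each gene centred on its own mean. They were Thsd1 (Euclidean distance 0.0033 in log2 units), Usp9x (0.022) and Gnao1 (0.022), and 175 genes lay within a distance of 0.2. With 3 points per gene such likeness is common.

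Map1lc3b encodes LC3B, the form most used as a marker of autophagosomes. It read 9.96 in HFD-Rapa, 10.09 in HFD-Ve and 9.87 in chow. The order of HFD-Rapa and HFD-Ve was that of Map1lc3a, but the differences were -0.12 in the rapamycin comparison, 0.21 in the diet comparison and 0.09 in the joint comparison, none larger than the SD between bright probes. Gabarap, of the branch of the family that acts late in closure and fusion, read 13.09 in HFD-Rapa, 12.96 in HFD-Ve and 12.85 in chow, with differences of 0.13, 0.11 and 0.24. Its near relative Gabarapl1 read 11.57 in HFD-Rapa, 11.49 in HFD-Ve and 11.57 in chow. Gabarap was highest with rapamycin and Gabarapl1 was level, and the largest difference of either gene was the 1.18-fold of Gabarap between HFD-Rapa and chow.

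Gabarapl2, the remaining measured gene of the family, read 6.48 in HFD-Rapa, 6.54 in HFD-Ve and 5.84 in chow. It was 1.56-fold higher in HFD-Rapa and 1.63-fold higher in HFD-Ve than in chow. Of the 5 family genes, 1 was at least 1.5-fold lower in HFD-Rapa than HFD-Ve (Map1lc3a), and 1 was at least 1.5-fold higher in each HFD group than in chow (Gabarapl2). Gabarapl2 is dim, and in the authors' processed values its log2 differences from chow were 0.30 in HFD-Rapa and 0.32 in HFD-Ve, under 1.5-fold.

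Sqstm1 is the adaptor of the group. It read 12.67 in HFD-Rapa, 12.66 in HFD-Ve and 12.34 in chow. Both HFD arrays were alike and above chow, by 1.25-fold in HFD-Rapa and 1.24-fold in HFD-Ve (log2 differences of 0.33 and 0.31), below the threshold and larger than the SD between bright probes. In the diet and joint comparisons, 51.4% and 61.7% of all genes were at least as far apart as Sqstm1. HFD-Rapa and HFD-Ve differed by 0.01, and 97.5% of all genes were at least as far apart. The transcript does not show how much p62 protein was present, since the protein is removed by autophagy.

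Tfeb was the dimmest of the 10 probes and was not well above background on every array. It read 5.35 on the HFD-Rapa array and 5.38 on the HFD-Ve array, where it was detected, and 5.27 on the chow array, where it was not (detection p of 0.0075, 0.0096 and 0.019). The difference between HFD-Rapa and HFD-Ve was -0.03, and no fold against chow can be given because the chow signal lies below the detection limit. A second Tfeb probe was not detected on any array.

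**Figure D2:**
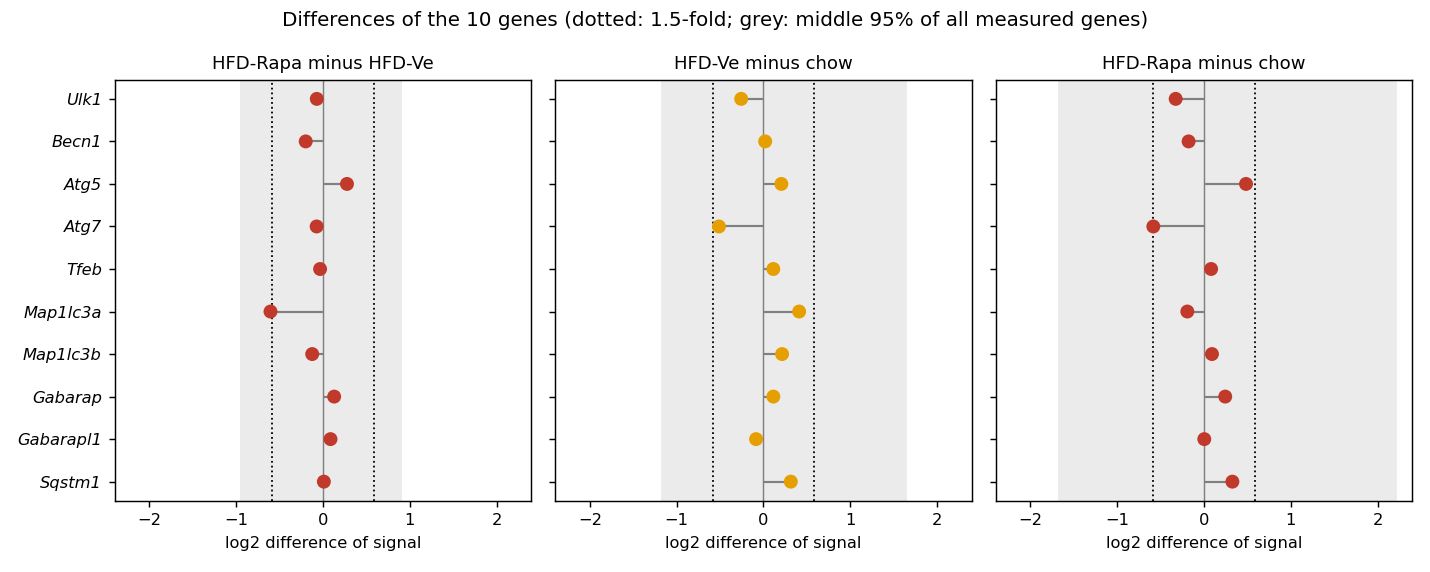
Log2 differences (horizontal axis) of the 10 genes for HFD-Rapa minus HFD-Ve, HFD-Ve minus chow and HFD-Rapa minus chow. Dotted lines mark 1.5-fold and the grey band holds the middle 95% of all 10603 genes (-0.94 to 0.90, -1.17 to 1.64 and -1.67 to 2.22). All 30 points lie inside the band, and Map1lc3a at -0.60 for HFD-Rapa minus HFD-Ve is the point beyond a dotted line.

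The other genes of the pathway were read from lists of the core machinery. Of all measured genes, 8.55%, 15.1% and 20.5% were at least 1.5-fold higher in the rapamycin, diet and joint comparisons. The shares at least 1.5-fold lower were 7.56%, 11.7% and 19.5%. Outside the 10 genes these lists held 65 genes, of which 60 were measured. In the rapamycin comparison, 4 of 60 were at least 1.5-fold higher and 1 was lower, with a median of 0.00. In the diet comparison, 4 were higher and 1 lower, with a median of 0.07, and 2 of the 4 higher genes were not detected on the chow array and fell below 1.5-fold at their bounds. In the joint comparison, 9 were higher (8 at their bounds) and 4 lower, with a median of -0.01. The counts without background correction were 3 higher and 1 lower, 0 and 0, and 4 higher and 1 lower in the 3 comparisons. With the arrays scaled by their medians they were 2 and 1, 10 and 0, and 9 and 1.

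By step, 0 of 4 measured genes of the ULK complex, 0 of 8 of the PI3-kinase complex, 0 of 10 of the conjugation machinery and 0 of 10 of the membrane delivery genes passed 1.5-fold between HFD-Rapa and HFD-Ve. Their medians there were 0.02 (-0.11 with the arrays scaled by their medians), -0.07, -0.10 and -0.14. Against chow, the ULK complex subunit Atg101 was 1.53-fold higher in HFD-Rapa, and Pik3r4, the regulatory subunit of the PI3-kinase complex, was 1.59-fold higher in HFD-Rapa and 1.52-fold higher in HFD-Ve. Of the 10 membrane delivery genes, 2 were at least 1.5-fold lower than chow in HFD-Rapa and 1 in HFD-Ve. The shares of all genes that much lower were 19.5% and 11.7%, and 0 of the 10 were that much higher. Atg2b, which encodes a lipid transfer protein, was 1.58-fold lower in HFD-Rapa than chow, and the scramblase gene Tmem41b was 1.61-fold lower in HFD-Rapa and 1.73-fold lower in HFD-Ve than chow. Without background correction all of these differences from chow were under 1.5-fold, and over all alternatives they were as small as 0.56 for Atg101, 0.47 and 0.42 for Pik3r4 in HFD-Rapa and HFD-Ve, -0.55 for Atg2b, and -0.40 and -0.45 for Tmem41b in HFD-Rapa and HFD-Ve, on the log2 scale. Of the 10 measured conjugation genes, Atg5 and Atg7 included, 0 passed 1.5-fold in any comparison.

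Beside Sqstm1, 11 more cargo receptors were measured. Retreg1, a receptor for autophagy of the endoplasmic reticulum, read 9.13 in HFD-Rapa, 7.91 in HFD-Ve and 7.53 in chow. It was 2.33-fold higher in HFD-Rapa than HFD-Ve and 3.04-fold higher in HFD-Rapa than chow. The first difference was 1.22 on the log2 scale and as small as 0.98 over the alternatives. It moved by more than the SD between probes without background correction and in the authors' processed values. Ncoa4, the receptor for ferritin, was 1.52-fold lower in HFD-Rapa than chow (9.48 against 10.08) and read 9.84 on the HFD-Ve array. That call for Ncoa4 ended under 5 of 10 alternatives, with a log2 difference as small as -0.49. The 10 include the 3 detection filters and the bounds, which cannot change a gene detected on all 3 arrays. The median of the 12 receptors was 0.00 in the rapamycin comparison, 0.04 in the diet comparison and 0.08 in the joint comparison.

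Among the transcriptional regulators, Tfeb differed little, while Mitf and Foxo1 passed 1.5-fold between HFD-Rapa and HFD-Ve. Mitf, of the same family as Tfeb, read 7.19 in HFD-Rapa, 5.94 in HFD-Ve and 4.88 in chow, where it was not detected. It was 2.38-fold higher in HFD-Rapa than HFD-Ve, and at least 3.27-fold and at least 1.37-fold higher in HFD-Rapa and HFD-Ve than in chow. These bounds hold for the background correction used here. In the authors' processed values the log2 differences of Mitf from chow were 1.06 in HFD-Rapa and 0.39 in HFD-Ve. The size of the Mitf difference between HFD-Rapa and HFD-Ve also depended on the processing. It was 1.25 on the log2 scale and as small as 0.67 over 9 alternatives, under 1.5-fold in 0 of them. It moved by more than the SD between probes without background correction, with a larger offset and in the authors' processed values. Foxo1, a factor for autophagy and adipocyte genes that insulin signalling restrains, went the other way, with 8.48 in HFD-Rapa, 9.22 in HFD-Ve and 9.70 in chow. It was 1.67-fold lower in HFD-Rapa than HFD-Ve and 2.32-fold lower than in chow, and its mean over all kept probes gave a difference of -0.40 in the rapamycin comparison, which is under 1.5-fold. The macrophage marker sum had the same order of arrays as Mitf, and the adipocyte marker sum the same order as Foxo1. The adipocyte sum was 89861 in HFD-Ve and 92386 in chow, and Foxo1 was 1.39-fold lower in HFD-Ve than chow. Single adipocyte markers ran from 3.01-fold lower (Retn) to 1.65-fold higher (Lep) in that comparison. The part of these cells in the differences of Mitf and Foxo1 was not tested.

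Downstream, 13 of 17 lysosomal genes known as Tfeb targets were measured. None passed 1.5-fold between HFD-Rapa and HFD-Ve, with a median of 0.18 and 11 of 13 above 0. Against chow 5 passed 1.5-fold upward in HFD-Rapa (median 0.52) and 3 in HFD-Ve (median 0.34), where 20.5% and 15.1% of all genes did. Of the 13, 0 passed 1.5-fold downward. Hexa, a subunit of the lysosomal hexosaminidase, read 12.19 in HFD-Rapa, 11.73 in HFD-Ve and 10.78 in chow, 2.65-fold and 1.92-fold higher in HFD-Rapa and HFD-Ve than in chow. The protease gene Ctsd read 8.15 in HFD-Rapa, 7.63 in HFD-Ve and 6.86 in chow. Of the 14 fusion genes, 2 passed 1.5-fold upward between HFD-Rapa and HFD-Ve, where 8.55% of all genes did. They were the SNARE gene Vamp8 (log2 difference 0.62) and Vps18, a subunit of the HOPS tethering complex (0.59). With the arrays scaled by their medians both were under 1.5-fold (0.51 for Vamp8 and 0.44 for Vps18), and Vps18 was under it in 5 of 10 alternatives. Without background correction the lysosomal genes past 1.5-fold against chow numbered 4 in HFD-Rapa and 1 in HFD-Ve. Lysosomal genes are highly expressed in macrophages, whose 9 measured markers had medians of 0.73 in the rapamycin comparison, 1.49 in the diet comparison and 2.23 in the joint comparison, and their part in the lysosomal values was not tested.

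Sqstm1 also connects to the Keap1-Nrf2 pathway, in which p62 can sequester Keap1 and so release the transcription factor Nrf2 (Nfe2l2), whose targets include Sqstm1 itself. Of 8 genes measured, 3 passed 1.5-fold upward between HFD-Rapa and HFD-Ve (median 0.38), where 8.55% of all genes did. Between HFD-Ve and chow 2 passed upward (median 0.24), where 15.1% of all genes did. Between HFD-Rapa and chow 5 passed upward (median 0.73), where 20.5% of all genes did. While 0 passed 1.5-fold downward, 2 of 8 lay below chow in HFD-Ve and 1 in HFD-Rapa. Nqo1 lay below chow in both, at -0.29 in the diet comparison and -0.18 in the joint comparison. The 5 include Keap1, whose probes disagree, with 0.62 for the brightest and -0.063 for the mean of its kept probes. The 3 include Gclm, which was under 1.5-fold in 3 of 10 alternatives and as low as 0.50 on the log2 scale. These were no background correction, the arrays scaled by their medians and the authors' processed values. Srxn1, which repairs oxidised peroxiredoxins, read 10.99 in HFD-Rapa, 9.92 in HFD-Ve and 9.45 in chow. The heme oxygenase gene Hmox1 read 10.97 in HFD-Rapa, 10.12 in HFD-Ve and 7.06 in chow. Both were highest with rapamycin, by 2.10-fold for Srxn1 and 1.80-fold for Hmox1 over HFD-Ve, while Sqstm1 differed by 1.01-fold there. For Srxn1 this was 1.07 on the log2 scale, and 0.79 with the mean of its kept probes. Nfe2l2 itself differed by 0.17 in the rapamycin comparison and -0.08 in the diet comparison. Hmox1 is also strongly expressed in macrophages, and the part of those cells in its values was not tested.

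**Figure D3:**
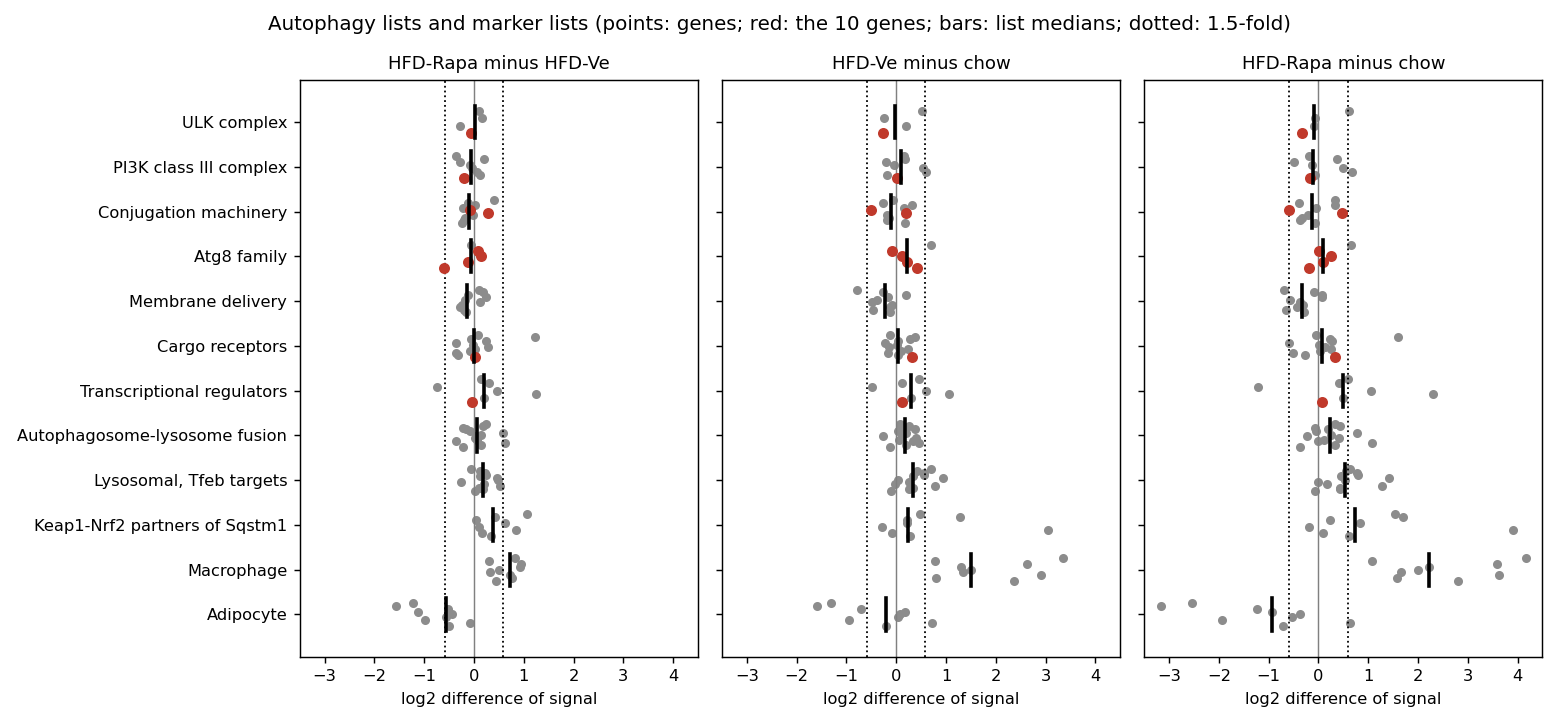
Log2 differences (horizontal axis) of single genes in the lists of autophagy steps, lysosomal genes, Keap1-Nrf2 genes and the macrophage and adipocyte markers, for the 3 comparisons. Red points are the 10 genes, grey points the other genes, black bars list medians and dotted lines 1.5-fold. Medians of the autophagy, lysosomal and Keap1-Nrf2 lists lie between -0.34 and 0.73, the macrophage median reaches 2.23 and the adipocyte median -0.93 for HFD-Rapa minus chow.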

How the data were processed

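RNA from VWAT of HFD-Rapa, HFD-Ve and chow mice was hybridised to 1 Illumina array per group. The labels and the methods name different extraction kits. The authors deposited unnormalized probe intensity values exported from GenomeStudio, with no background subtracted, and a detection p-value beside each. The other deposited table has processed intensity values from the authors, on a linear scale (medians of 74.1, 74.2 and 74.3 for HFD-Rapa, HFD-Ve and chow), whose normalization is not given in the sources used here. It served as an alternative.

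In limma 3.58.1 (R 4.3.3) background was estimated from the detection p, corrected with an offset of 16, quantile-normalized and taken to log2. A probe was kept when its detection p was under 0.01 on 1 array or more (18954 of 45281). Of the probes on the arrays, 34885 have 1 gene in the platform annotation, 18 have several and were not named, and 10378 are unnamed here. The brightest kept probe stood for a gene. Where the dimmer array did not detect a probe, its fold was bounded by the lowest detected signal of that array. Differences are folds on these arrays, counted at 1.5-fold, with no test. The number of arrays limits the precision.

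The 10 genes and all lists were chosen with earlier results of these data known. Beside the 10 genes, genes to name were drawn from those detected on all arrays, up to 3 per list by the size of the HFD-Rapa over HFD-Ve difference and up to 2 by that of HFD-Ve over chow, with the 3 genes nearest in pattern to the member of widest range. Atg2b, Mitf, Nfe2l2, Nqo1 and Keap1 fall outside this rule and were chosen after their values were seen. Alternatives were 2 other background settings, 2 other scalings, the processed table, 3 detection filters, the mean of kept probes, a 2-fold threshold and undetected genes at their bounds. For a gene detected on all 3 arrays, the detection filters and the bounds return the same value. The mean of kept probes does so for a gene with a single kept probe. Counts over alternatives include these settings. Values were computed in Python 3.11.15 with numpy 2.4.6 and pandas 2.3.3 and drawn with matplotlib 3.10.9. The steps were tested on simulated data in which only bright genes were changed, by 2-fold or more. That does not cover smaller differences or genes near the detection limit.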

Additional observations from a re-analysis of the deposited data

How the results depend on the processing

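Differences of the 10 single genes were computed under 10 alternatives, and the 2-fold threshold applies to counts only. This gave 297 values, many of which could not move. The detection filters and the bounds return the same value for a gene detected on every array. The mean of kept probes does so for a gene with a single kept probe. With these included, 295 values moved by less than the SD between probes of 1 gene over all kept probes. That count is therefore no measure of stability under those settings. The other 2 moved by more, and 4 moved by at least the SD between bright probes. The 2 were Becn1 with the mean of its kept probes, at 0.45 in the diet comparison and 0.23 in the joint comparison. The sign turned in 8 of the 297, for Sqstm1, Gabarapl1, Becn1 and Tfeb. The count of genes at least 1.5-fold lower in HFD-Rapa than HFD-Ve became 0 with no background correction, with the authors' processed values and with the 2-fold threshold. Map1lc3a lay between -0.72 and -0.57 over the alternatives. With the 75th percentile shift, 1 gene (Atg7, at -0.63) was at least 1.5-fold lower in HFD-Rapa than chow, and the median of the 10 genes in that comparison was -0.01. With the median shift, 1 gene (Map1lc3a, at 0.60) was at least 1.5-fold higher in HFD-Ve than chow.

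The median shift moved the median of all genes to -0.09 in the rapamycin comparison, 0.15 in the diet comparison and 0.06 in the joint comparison. The share of genes past 1.5-fold that were higher was then 36%, 76.8% and 59.8%, against 53.1%, 56.3% and 51.2% with quantile normalization. With no background correction, 4.23% of all genes were at least 1.5-fold higher and 4.13% lower in the rapamycin comparison, 9.27% and 6.49% in the diet comparison, and 13.8% and 12.7% in the joint comparison, each fewer than with the correction. In the authors' processed values they were 4.27% and 4.11%, 9.15% and 6.42%, and 13.7% and 12.6%. With the 2-fold threshold these shares were 1.56% and 2.13%, 7.28% and 3.88%, and 11.7% and 8.23%. With no detection filter they were 4.79% and 4.26%, 8.54% and 6.72%, and 11.6% and 11.2% of 19057 genes. In checks chosen after seeing the data, Keap1 had -0.063 in the joint comparison with the mean of its kept probes, against 0.62 for its brightest probe. The cause of these changes was not tested. No paired analysis was possible because each group has 1 array. The array signal limits Tfeb, which drops out when detection on all 3 arrays is required.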
